A study of Mus musculus with 16 samples.

Results

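The genes described here encode the protein machines that fold and hold together chromosomes in dividing cells, namely the 2 type II topoisomerases (Top2a and Top2b), 5 subunits of condensin (Smc2, Smc4, Ncaph, Ncapd2 and Ncapg) and 3 core subunits of cohesin (Smc1a, Smc3 and Rad21). Members were all probe sets annotated to exactly 1 of these 10 symbols, which gave 22 of the 22626 probe sets and 10 of the 12393 genes measured. Of the 22 probe sets, 5 measured topoisomerase II, 9 condensin and 8 cohesin. Their transcripts were measured in 9 metastases and 7 primary lung adenocarcinomas, with 1 Affymetrix Mouse 430A 2.0 array per tumor, to ask how the metastases of a mouse differ from its own lung tumor.

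All tumors arose spontaneously in p53R172HΔg/+ K-rasLA1/+ mice, which carry a mutant p53 allele and a latent oncogenic K-ras allele that is switched on by chance recombination, so every group carried both alleles, no group was treated and no age was given. Mouse 1 gave 3 metastases (liver, inguinal, and subcutaneous at the body wall), mouse 2 gave 1 (liver), mouse 3 gave 3 (heart, mediastinal lymph node and subcutaneous) and mouse 4 gave 2 (mediastinal lymph node and parietal pleura). The study's sample table lists the tumor labelled inguinal as another body wall metastasis, and the label is used here. The primary tumors of these 4 mice are the matched primary tumors. Those of mice 5, 6 and 7 had no profiled metastasis, and the mouse 6 tumor was the 1 sample from a female.

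Topoisomerase II cuts both strands of one DNA segment, passes another through the break and reseals it, which untangles replicated chromosomes. Condensin and cohesin are ring-shaped complexes built on paired SMC ATPases that are closed by a kleisin subunit. Condensin compacts chromosomes as cells enter mitosis, whereas cohesin holds sister chromatids together and also shapes chromatin loops in cells that are not dividing. Top2a is made mainly in cycling cells, whereas Top2b is also present in cells that have left the cycle.

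The labelled tissues were first set against marker genes. The 7 measured alveolar type 2 markers had a summed intensity of 1132 to 28023 in metastases and 17109 to 46417 in primary tumors. Hepatocyte markers (5 of 5 measured) summed to 7839, 7518 and 5867 in the liver, inguinal and body wall metastases of mouse 1 and to 5114 in the liver metastasis of mouse 2, against 182 to 1723 in the other metastases and 263 to 1066 in primary tumors, so they were also high at 2 sites that are not liver. Heart muscle markers summed to 2575 in the heart metastasis, against 69.7 to 172 in the other metastases and 60.7 to 121 in primary tumors. In the lymph node metastases of mice 3 and 4, T cell markers (148 and 163) and B cell markers (331 and 289) lay within the range of the primary tumors (86.7 to 164 and 220 to 353). In dissected bulk tumors, fewer cells of a type and less RNA per cell cannot be told apart.

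The promoters are shown because many genes of dividing cells carry CHR and CCAAT elements near their start. The CHR (cell cycle genes homology region) is bound by the DREAM and MuvB complexes, and the CCAAT box is bound by NF-Y. In RefSeq windows from 250 bases before to 50 bases after the transcript start (GRCm38.p6), 8 of the 10 members had an entry. Both strands were searched for the CHR (TTTGAA or TTCGAA), for CCAAT, and for E2F sites (TTTCCCGC, TTTCGCGC, TTTGCCGC or TTTGGCGC). The windows of both topoisomerase II paralogs are shown first, to set a gene that passed the test against all primary tumors beside one that did not. Matches are in capitals, in the orientation in which the gene is read, so TTCAAA and ATTGG are TTTGAA and CCAAT on the opposite strand. The Top2a window lies at chr11:99024140-99024439 on the minus strand, and the Top2b window at chr14:16364956-16365255 on the plus strand.
Top2a: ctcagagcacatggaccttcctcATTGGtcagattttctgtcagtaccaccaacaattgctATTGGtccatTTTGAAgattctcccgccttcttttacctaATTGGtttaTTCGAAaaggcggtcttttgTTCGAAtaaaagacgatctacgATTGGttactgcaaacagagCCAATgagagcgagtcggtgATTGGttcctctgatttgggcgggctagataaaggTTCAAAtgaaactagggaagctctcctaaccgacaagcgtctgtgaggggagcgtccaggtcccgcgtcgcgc
Top2b: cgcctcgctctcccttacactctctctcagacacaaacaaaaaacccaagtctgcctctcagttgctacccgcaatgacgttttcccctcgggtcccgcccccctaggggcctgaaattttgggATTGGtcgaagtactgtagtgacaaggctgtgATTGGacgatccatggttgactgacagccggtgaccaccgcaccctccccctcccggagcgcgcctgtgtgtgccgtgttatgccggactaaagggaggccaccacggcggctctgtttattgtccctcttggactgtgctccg

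The Top2a window held 4 CHR matches, which began at −179, −140, −120 and −23 from the start, and 6 CCAAT matches. The Top2b window held 0 CHR matches and 2 CCAAT matches. A CHR match was present in 19.2% of 32851 windows of the same length, 2 or more in 2.54% and 3 or more in 0.310%. CCAAT was present in 37.4% of windows, and 3 or more copies in 3.37%.

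The next 3 windows set 2 condensin genes beside a cohesin gene. Smc2 lies at chr4:52438971-52439270 (plus strand), Ncapd2 at chr6:125191537-125191836 (minus strand) and Smc3 at chr19:53600146-53600445 (plus strand).
Smc2: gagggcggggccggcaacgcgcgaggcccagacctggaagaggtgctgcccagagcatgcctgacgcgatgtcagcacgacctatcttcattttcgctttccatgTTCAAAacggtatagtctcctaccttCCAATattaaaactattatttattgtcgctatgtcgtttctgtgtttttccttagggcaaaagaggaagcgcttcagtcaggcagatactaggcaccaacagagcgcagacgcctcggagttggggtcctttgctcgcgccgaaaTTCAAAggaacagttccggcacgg
Ncapd2: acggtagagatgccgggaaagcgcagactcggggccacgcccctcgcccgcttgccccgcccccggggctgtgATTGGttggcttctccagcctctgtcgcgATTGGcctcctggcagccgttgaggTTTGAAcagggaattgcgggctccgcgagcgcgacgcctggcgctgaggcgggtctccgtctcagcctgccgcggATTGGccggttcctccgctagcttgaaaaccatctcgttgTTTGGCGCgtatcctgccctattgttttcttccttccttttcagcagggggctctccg
Smc3: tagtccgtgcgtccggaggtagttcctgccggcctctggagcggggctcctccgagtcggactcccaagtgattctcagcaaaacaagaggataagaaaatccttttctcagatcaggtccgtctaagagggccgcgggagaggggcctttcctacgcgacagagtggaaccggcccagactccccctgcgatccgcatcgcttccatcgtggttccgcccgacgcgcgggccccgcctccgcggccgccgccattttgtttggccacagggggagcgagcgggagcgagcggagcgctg

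Smc2 had 2 CHR matches (−145 and 27), Ncapd2 had 1 (−123) and Ncapg had 1 (−30), whereas Ncaph, Smc1a and Smc3 had 0. Ncapd2 carried 3 CCAAT matches, and Smc2, Ncapg and Smc1a carried 1 each. E2F matches, present in 2.26% of all windows, were found in Ncapg, Ncapd2 and Smc1a, 1 in each. No match overlapped another in these 8 windows. A match is a run of letters, not a measured binding site, and the absence of one says only that these letters are not in the window.

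**Figure D1:**
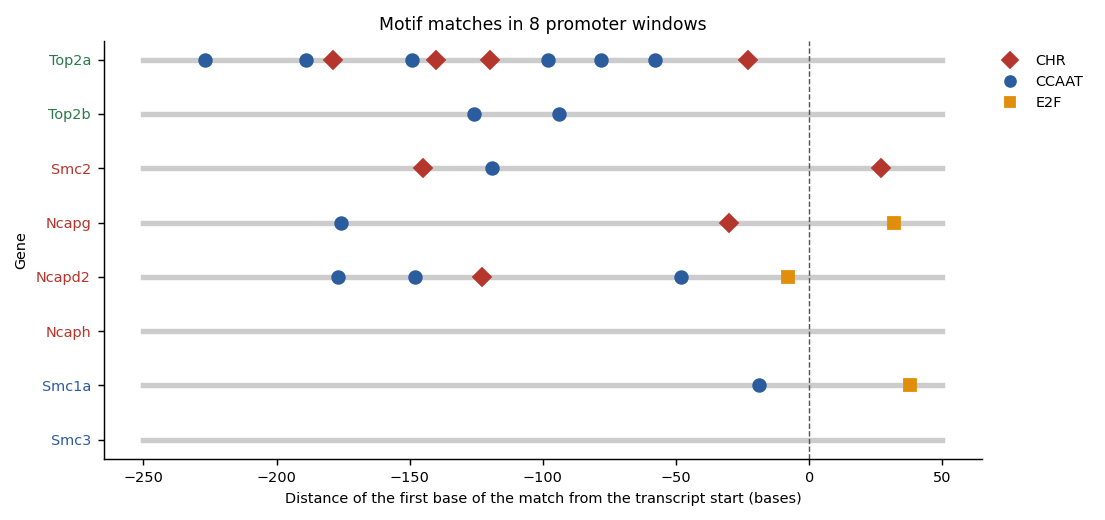
Positions of CHR (diamonds), CCAAT (circles) and E2F (squares) matches in the promoter windows of 8 members, against the distance of the first base of the match from the transcript start in bases. Top2a holds 4 CHR matches, Smc2 holds 2, Ncapg and Ncapd2 hold 1 each, and the other 4 windows hold 0.

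Of the 22 member probe sets, 18 had a mean above the 25th percentile of all intensities (24.3), and the other 4 (Top2a 1427724_at, Top2b 1448458_at, Ncapg 1429172_a_at and Smc1a 1417832_at) lay at or under 16.4 in every tumor. Each gene is described at its brightest probe set, and the others are then set beside it. Intensities are the model-based values of the array on a linear scale, differences are of log2 values, and adjusted p-values come from limma after Benjamini-Hochberg adjustment over all 22626 probe sets, with 0.05 as the threshold. Metastases of 1 mouse share a primary tumor and are not independent, and only 4 mice had metastases. In limma the mouse was a block, but each metastasis still entered as a separate unit. These p-values therefore do not take the mouse as the unit. With 1 mean ratio per mouse, the adjusted p against matched primary tumors was 0.42 for Top2a and 0.418 for Smc2. In the matched fit it was 0.129 and 0.178.

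Top2a, the topoisomerase II of cycling cells, was higher in every metastasis than in its own primary tumor. Its intensity (1454694_a_at) was 397, 246 and 345 in the inguinal, liver and body wall metastases of mouse 1, against 64.8 in the primary tumor. It was 316 in the liver metastasis of mouse 2, against 98.9 in the primary tumor. The contrast within mice 3 and 4 was smaller. In mouse 3 the heart, lymph node and subcutaneous metastases had 309, 226 and 198, against 164 in the primary tumor. In mouse 4 the lymph node and pleural metastases had 97.7 and 88.9, against 65.1 in the primary tumor. The primary tumors of mice 5, 6 and 7 had 51.7, 79.3 and 73.2, so 7 of 9 metastases exceeded all 7 primary tumors, and the groups overlapped only through the metastases of mouse 4, which lay below the primary tumors of mice 2 and 3.

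The mean Top2a intensity was 247 ± 106 in metastases (SD, n = 9) and 98.2 ± 46.6 in matched primary tumors (SD, n = 4). The log2 difference was 1.25 (SE 0.29, 95% interval 0.60 to 1.90), a 2.38-fold higher level, with an unadjusted p of 0.00165 and an adjusted p of 0.129. Against all 7 primary tumors the difference was 1.40 (SE 0.29, adjusted p = 0.0261). The mean log2 ratio per mouse was 2.32, 1.68, 0.55 and 0.52 in mice 1 to 4.

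Top2b, the paralog that is not tied to division, showed no common direction. Its intensity (1416731_at) ran from 391 to 1079 with a median of 618 in metastases, against 715, 653, 519 and 447 in the primary tumors of mice 1 to 4. It was higher than the own primary tumor in 5 of 9 metastases. All 3 metastases of mouse 1 lay below their primary tumor (620, 426 and 504, against 715), whereas the liver metastasis of mouse 2 held the highest value of all 16 tumors, 1079 against 653. The log2 difference was 0.15 (SE 0.21, 95% interval −0.32 to 0.63, adjusted p = 0.847), and −0.02 (adjusted p = 0.982) against all 7 primary tumors. The other probe set above the 25th percentile, 1416732_at, differed by −0.02 (SE 0.31, adjusted p = 0.990).

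The log2 ratio of Top2a exceeded that of Top2b in 7 of 9 metastases, all but the 2 of mouse 4. The mean difference between the 2 ratios was 2.80, 0.95, 0.51 and −0.05 in mice 1 to 4. The contrast between the paralogs was thus largest in mouse 1, where Top2a was higher and Top2b lower than in the primary tumor.

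**Figure D2:**
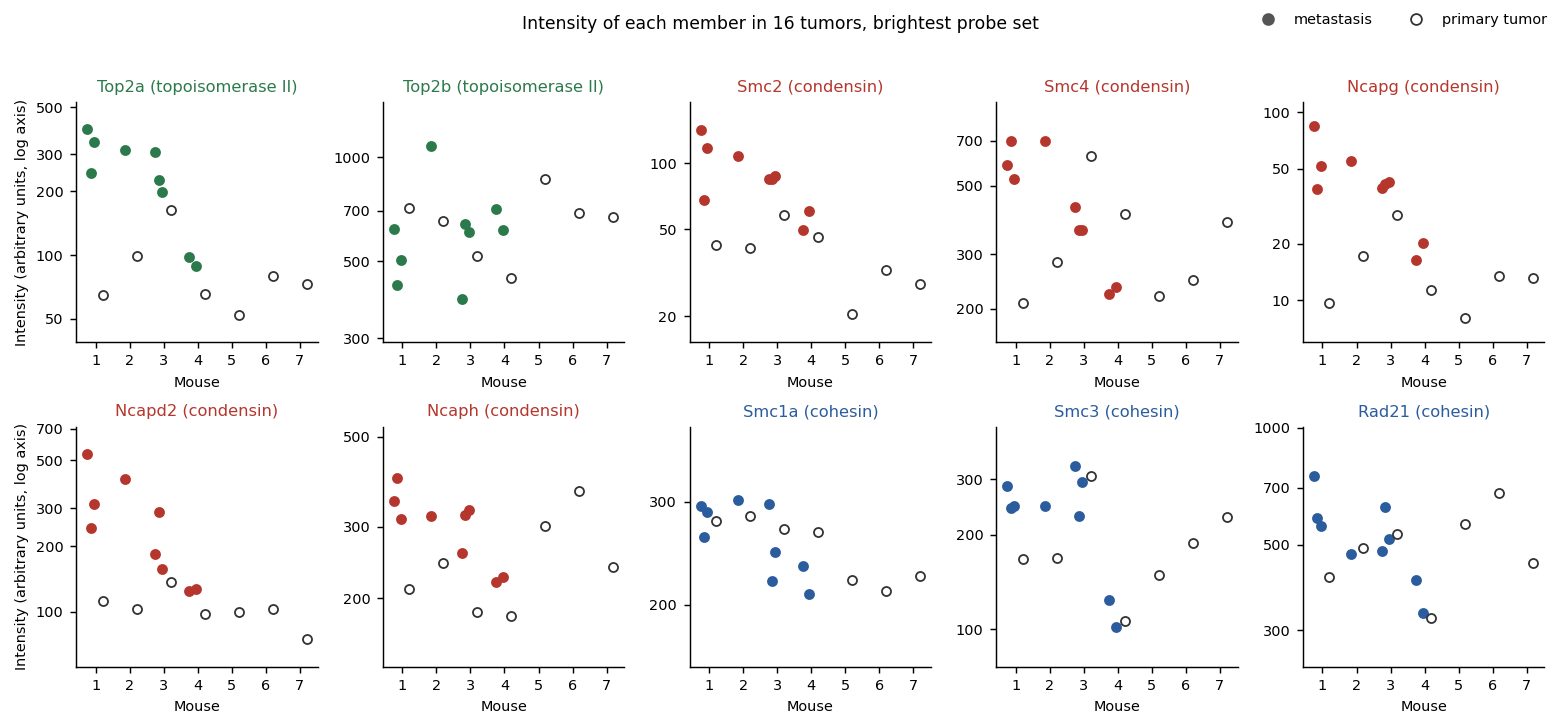
Intensity (arbitrary units, log axis) of the brightest probe set of each of the 10 genes in every tumor, by mouse, with metastases as filled points left of the open points of primary tumors. For Top2a, 7 of 9 metastases lie above all 7 primary tumors, whereas Top2b and the cohesin genes show filled and open points mixed. The condensin genes Smc4 and Ncaph are mixed as well, with 2 and 1 of 9 metastases above all 7 primary tumors.

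Smc2, one of the paired ATPases at the core of condensin, was also higher in 9 of 9 metastases than in their own primary tumors. Its intensity (1448635_at) was 143, 68.1 and 118 in the inguinal, liver and body wall metastases of mouse 1, against 42.2 in the primary tumor. In mouse 2 it was 108 in the liver metastasis, against 41.2 in the primary tumor. Mice 1 and 2 again gave the wider gap. In mouse 3 the 3 metastases lay close together at 85.2 (heart), 85.0 (lymph node) and 87.4 (subcutaneous), against 58.1 in the primary tumor. In mouse 4 the values were 49.8 (lymph node) and 60.6 (pleura), against 45.9 in the primary tumor. The primary tumors of mice 5, 6 and 7 were the lowest of all, at 20.4, 32.4 and 28.1. Thus 8 of 9 metastases exceeded all 7 primary tumors, the exception being the lymph node metastasis of mouse 4, which lay below the primary tumor of mouse 3.

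The mean Smc2 intensity was 89.4 ± 29.4 in metastases (SD, n = 9) and 46.9 ± 7.75 in matched primary tumors (SD, n = 4). The log2 difference was 0.85 (SE 0.23, 95% interval 0.34 to 1.36, adjusted p = 0.178). With all 7 primary tumors it was 1.13 (SE 0.22, adjusted p = 0.0234). Mouse means of the log2 ratio were 1.31, 1.40, 0.56 and 0.26 in mice 1 to 4.

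Smc4, the partner of Smc2 in the same complex, split by mouse. At 1427275_at its intensity was 586, 700 and 527 in the inguinal, liver and body wall metastases of mouse 1 against 208 in the primary tumor, and 698 in the liver metastasis of mouse 2 against 284. In mouse 3 the metastases had 427 (heart), 359 (lymph node) and 360.5 (subcutaneous), all below the 625 of the primary tumor. In mouse 4 they had 223 (lymph node) and 235 (pleura), below the 404 of the primary tumor. Mice 1 and 2 (4 metastases) thus gave higher, and mice 3 and 4 (5 metastases) lower, Smc4 values than the own primary tumor, with mouse means of 1.53, 1.30, −0.71 and −0.82.

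The pooled difference of Smc4 was 0.27 (SE 0.36, 95% interval −0.54 to 1.08, adjusted p = 0.841). The other 2 probe sets did not show the lower values of mice 3 and 4 to the same extent. At 1452197_at the mouse means were 1.21, 0.71, 0.05 and 0.15, with 7 of 9 metastases higher and a difference of 0.53 (SE 0.20, adjusted p = 0.344). At 1427276_at they were 0.72, 0.76, −0.05 and −0.08, and the difference was 0.31 (SE 0.16, adjusted p = 0.507). All 3 probe sets were thus higher in mice 1 and 2, and they disagreed on the size and sign in mice 3 and 4.

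Ncapd2, a HEAT-repeat subunit of condensin, was higher in 9 of 9 metastases. Its intensity (1423847_at) was 533, 243.5 and 314 in the inguinal, liver and body wall metastases of mouse 1, against 112 in the primary tumor, and 407 in the liver metastasis of mouse 2, against 103. In mouse 3 it was 184 (heart), 288 (lymph node) and 157 (subcutaneous), against 137 in the primary tumor. In mouse 4 it was 125 (lymph node) and 127 (pleura), against 98.1 in the primary tumor. The 7 primary tumors lay within a narrow band of 74.4 to 137, and 7 of 9 metastases were above that band. Means were 264 ± 138 in metastases (SD, n = 9) and 113 ± 17.2 in matched primary tumors (SD, n = 4). The log2 difference was 1.08 (SE 0.30, 95% interval 0.41 to 1.74, adjusted p = 0.192), and 1.16 (SE 0.26, adjusted p = 0.0370) against all 7 primary tumors.

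Ncapg, the other HEAT-repeat subunit, had the largest log2 difference among the brightest probe sets of the 10 genes but was dim. Its intensity (1429171_a_at) was 84.9, 39.1 and 51.7 in the inguinal, liver and body wall metastases of mouse 1, against 9.61 in the primary tumor, and 55.3 in the liver metastasis of mouse 2, against 17.2. It was 39.5 (heart), 41.7 (lymph node) and 42.8 (subcutaneous) in mouse 3, against 28.3 in the primary tumor. It was 16.3 (lymph node) and 20.2 (pleura) in mouse 4, against 11.4. Of the 16 values, 8 lay under the 25th percentile of 24.3, those of both mouse 4 metastases and of 6 primary tumors. The log2 difference was 1.35 (SE 0.32, 95% interval 0.64 to 2.06, adjusted p = 0.131), and 1.50 (SE 0.29, adjusted p = 0.0208) against all 7 primary tumors. With values under the 25th percentile raised to it, the last difference was 0.73 (adjusted p = 0.0889).

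Ncaph, the kleisin that closes the condensin ring, was higher in 9 of 9 metastases at 1436707_x_at. Its median was 319 in metastases (219 to 396), against 211, 244, 185 and 181 in the primary tumors of mice 1 to 4. The log2 difference was 0.55 (SE 0.12, 95% interval 0.28 to 0.82, adjusted p = 0.106). The primary tumors of mice 5 and 6, at 302 and 367, lay inside the range of the metastases, and against all 7 primary tumors the difference was 0.37 (adjusted p = 0.304). The ending of this probe set's name marks probes that can also match other transcripts. The second probe set, 1423920_at, was higher in 6 of 9 metastases and differed by 0.18 (SE 0.12, adjusted p = 0.646).

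**Figure D3:**
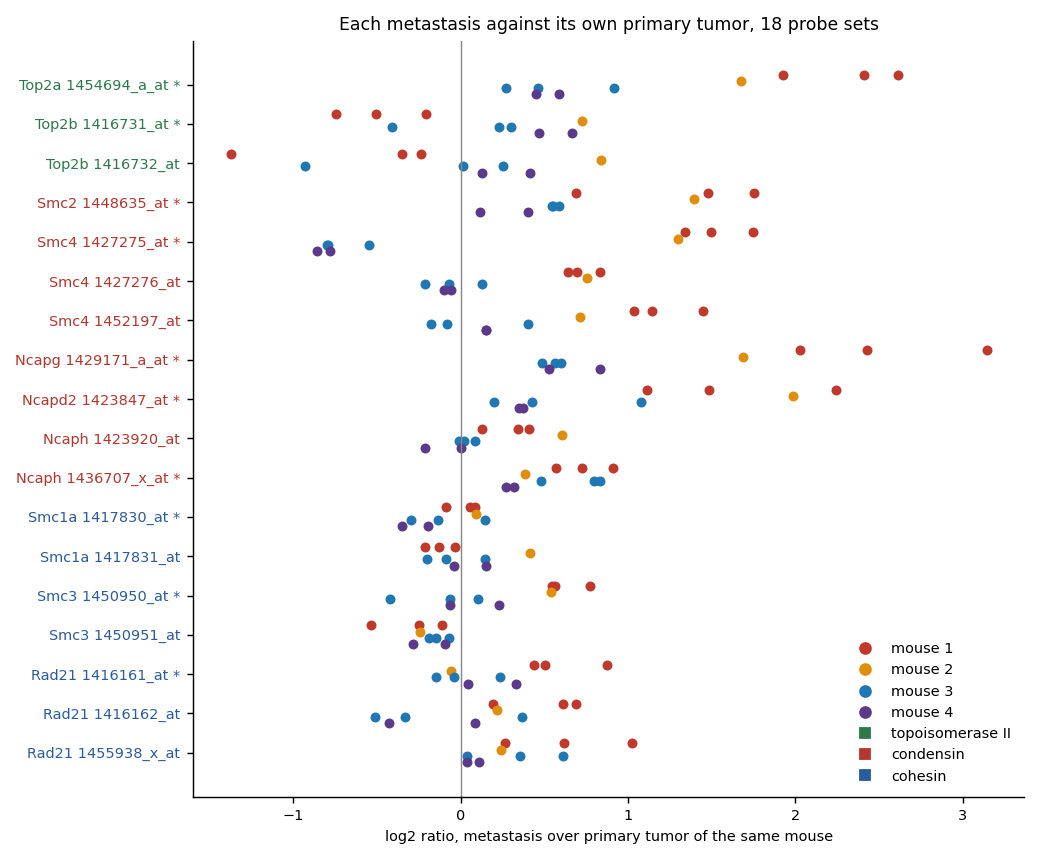
log2 ratio of each metastasis to the primary tumor of its own mouse for 18 probe sets, coloured by mouse, with the brightest probe set of each gene starred. Top2a, Smc2, Ncapg, Ncapd2 and 1 Ncaph probe set have all 9 points right of 0, and Smc4 1427275_at has mice 1 and 2 on one side and mice 3 and 4 on the other.

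At the brightest probe sets, the log2 differences of the 3 cohesin genes ran from −0.07 (Smc1a) to 0.26 (Smc3). Those of the condensin genes ran from 0.27 (Smc4) to 1.35 (Ncapg), so Smc4 lay beside Smc3. Smc1a, one of the cohesin ATPases, had intensities (1417830_at) of 209 to 302 with a median of 261 in metastases, against 278, 284, 270 and 266 in the primary tumors of mice 1 to 4. It was higher in 4 of 9 metastases, and the log2 difference was −0.07 (SE 0.11, 95% interval −0.32 to 0.17, adjusted p = 0.859). Its second probe set, 1417831_at, differed by 0.04 (SE 0.11, adjusted p = 0.928).

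Smc3, the partner ATPase, gave opposite signs at its 2 probe sets. At 1450950_at the metastases ran from 101 to 330 with a median of 246, against 167, 169, 307.5 and 106 in the primary tumors of mice 1 to 4, and 6 of 9 metastases were higher than their own primary tumor. The difference was 0.26 (SE 0.16, 95% interval −0.08 to 0.61, adjusted p = 0.583). Mouse 4 stood lowest in both tissues, with 124 and 101 in its metastases and 106 in its primary tumor. At 1450951_at the metastases had 90.6 to 122, against 131, 110, 122 and 128 in the primary tumors, and 9 of 9 were lower than their own primary tumor. That difference was −0.21 (SE 0.10, adjusted p = 0.480), and −0.28 (adjusted p = 0.200) against all 7 primary tumors.

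Rad21, the kleisin of cohesin that is cleaved to release sister chromatids, had intensities (1416161_at) of 333 to 753.5 with a median of 518 in metastases, against 411, 491, 533 and 323 in the primary tumors of mice 1 to 4. It was higher in 6 of 9 metastases, of which 3 were those of mouse 1, whose mean log2 ratio was 0.61. The difference was 0.21 (SE 0.15, 95% interval −0.11 to 0.53, adjusted p = 0.646). At 1455938_x_at, whose probes can match other transcripts, 9 of 9 metastases were higher, by 0.34 (SE 0.16, adjusted p = 0.488). At 1416162_at the difference was 0.09 (SE 0.20, adjusted p = 0.905). The 95% intervals of Smc1a, Smc3 and Rad21 reached up to 0.17, 0.61 and 0.53 and all included 0. These 13 tumors thus exclude neither 0 nor higher values up to these bounds.

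Across the array, 80 of 22626 probe sets (0.354%) passed an adjusted p of 0.05 in the comparison with matched primary tumors, 3 higher (0.0133%) and 77 lower (0.34%) in metastases. Of the 10 members, 0 passed in limma. At an unadjusted p of 0.01, 258 probe sets (1.14%) were higher, among them 5 of the 22 member probe sets (Top2a, Smc2, Ncapg, Ncapd2 and Ncaph). No cohesin probe set reached that level in this fit, whereas Smc3 1450951_at (lower) and Rad21 1455938_x_at (higher) did in the methods' test. Both enter the metastases of 1 mouse as separate units, and the methods' test takes their ratios as independent. Of the 22 probe sets, 6 were higher than the own primary tumor in every metastasis, where 1.81% of all probe sets were, and 1 was lower in every metastasis, where 3.6% were. No member probe set separated all metastases from all matched primary tumors, which 49 probe sets (0.217%) did upward.

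Against all 7 primary tumors, 280 probe sets (1.24%) passed, of which 64 (0.283%) were higher in metastases. These included 4 of the 10 members, Top2a, Smc2, Ncapg and Ncapd2, which rose in metastases. No member was among the 216 probe sets (0.955%) that were lower. The calls depended on single animals. They numbered 0 without mouse 1, 0 without mouse 2, 1 (Ncapg) without mouse 3 and 4 without mouse 4. Leaving out the primary tumor alone gave 0 calls for mouse 1, 1 (Ncapg) for mouse 2 and 2 (Ncapg and Smc2) for mouse 5. Ncapd2 was the call lost most often, when any 1 of 6 primary tumors was left out (adjusted p = 0.0607 to 0.108) and without the replicate block (adjusted p = 0.0630), and it held without the primary tumor of mouse 3 (adjusted p = 0.0357). The adjusted p of Top2a lay between 0.00816 and 0.281 in these fits, and its difference between 1.05 and 1.73. The median difference of all probe sets was −0.02 against matched primary tumors and 0.01 against all primary tumors.

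**Figure D4:**
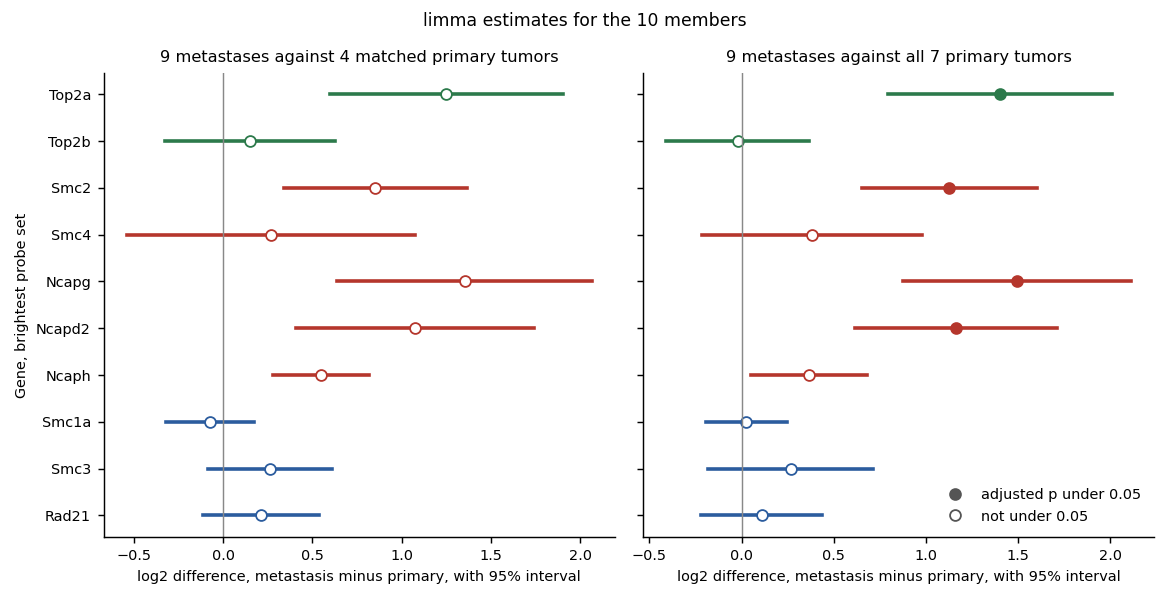
log2 difference of metastases minus primary tumors with its 95% interval at the brightest probe set of each gene, against the 4 matched primary tumors (left) and all 7 (right). Filled points passed an adjusted p of 0.05, which 0 genes did on the left and Top2a, Smc2, Ncapg and Ncapd2 did on the right.

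The direct contrast of condensin with cohesin used the brightest probe set of each gene. It set the mean log2 ratio of the 5 condensin genes against that of the 3 cohesin genes in each metastasis. Condensin averaged 1.87, 1.30 and 1.46 in the inguinal, liver and body wall metastases of mouse 1, where cohesin averaged 0.58, 0.32 and 0.35. In the liver metastasis of mouse 2 condensin averaged 1.35 and cohesin 0.19. In these 4 tumors all 5 condensin genes were higher than in the primary tumor. In mouse 3 condensin averaged 0.28 (heart), 0.44 (lymph node) and 0.29 (subcutaneous), and cohesin 0.03, −0.16 and −0.08. In mouse 4 condensin averaged 0.08 (lymph node) and 0.23 (pleura), and cohesin 0.12 and −0.12. In these 5 tumors 4 of the 5 condensin genes were higher at these probe sets, the exception being Smc4. Other probe sets gave other signs. For the heart, lymph node and subcutaneous tumors of mouse 3, Ncaph 1423920_at had 0.02, −0.01 and 0.08, and Smc4 1452197_at 0.41, −0.18 and −0.08. For the lymph node and pleural tumors of mouse 4, Ncaph 1423920_at had −0.22 and −0.0007, and Smc4 1452197_at 0.15 and 0.15.

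The condensin mean exceeded the cohesin mean in 8 of 9 metastases, and the lymph node metastasis of mouse 4 was the exception (−0.04). The gap per mouse was 1.13, 1.16, 0.40 and 0.16 in mice 1 to 4, which gives 0.71 ± 0.51 (SD, n = 4 mice). Condensin itself averaged 0.85 ± 0.70 and cohesin 0.13 ± 0.22 over the 4 mice. No test was run on this contrast, since the members were chosen with results of these data known. The highest gaps came from the 4 tumors of mice 1 and 2, which are also the tumors with summed hepatocyte markers of 5114 to 7839, and in the other mice, whose tumors had 182 to 1723, the gap was 0.40 and 0.16. The hepatocyte transcripts were also high in the inguinal and body wall tumors of mouse 1, and their part in the result was not tested. Every gap in mice 1 and 2 was above every gap in mice 3 and 4, with 1.29, 0.98 and 1.11 at the 3 sites of mouse 1 and 0.25, 0.60 and 0.36 at those of mouse 3, so that the subcutaneous tumors of these mice had 1.11 and 0.36. This split was seen after the values were known and was not tested.

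**Figure D5:**
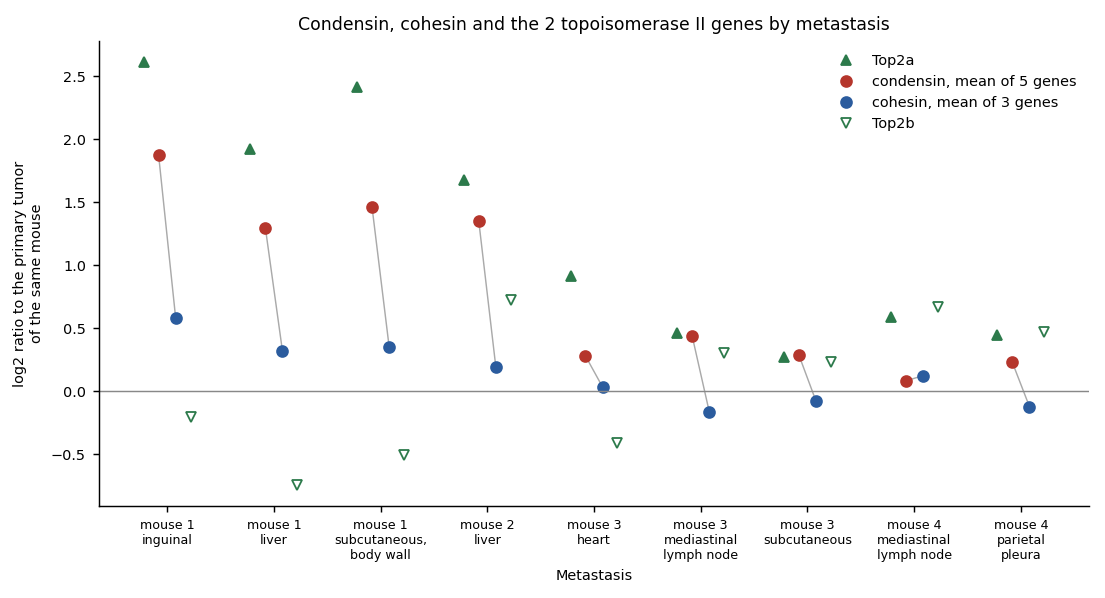
log2 ratio to the primary tumor of the same mouse in each metastasis, for Top2a, the mean of 5 condensin genes, the mean of 3 cohesin genes and Top2b, with a line joining condensin to cohesin. Condensin lies above cohesin in 8 of 9 metastases, by 1.29 at most in the inguinal metastasis of mouse 1.

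Transcripts of the G2 and M phase were also highest, relative to the own primary tumor, in the metastases of mice 1 and 2. The 7 measured genes of the G2 and M phase list (of 8) were all higher in metastases, with a median difference of 1.32. Against all primary tumors 4 of them rose (Ccna2, Cdk1, Birc5 and Bub1), and 0 passed against matched primary tumors. Their median log2 ratio was 2.81, 1.59 and 2.27 in the inguinal, liver and body wall metastases of mouse 1 and 1.79 in the liver metastasis of mouse 2. It was 0.87 (heart), 1.41 (lymph node) and 0.59 (subcutaneous) in mouse 3, and 0.61 (lymph node) and 0.47 (pleura) in mouse 4. The summed intensity of the list was 575 to 2296 in metastases and 388 to 636 in primary tumors. The 6 S phase genes had a median difference of 0.76, and 1 (Rrm2) rose against all primary tumors. The median log2 ratio of the S phase list was 2.06, 0.97 and 1.59 in the inguinal, liver and body wall metastases of mouse 1. It was 1.52 in the liver metastasis of mouse 2, and 0.14 (heart), 0.22 (lymph node) and −0.06 (subcutaneous) in mouse 3. In mouse 4 it was 0.67 in the lymph node metastasis, where the condensin mean was lowest (0.08), and 0.21 in the pleural metastasis. The part of cell division in the differences of Top2a and condensin was not tested.

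Other cell types also differed between the groups. All 7 measured alveolar type 2 markers were lower in metastases, with a median difference of −2.27, as were all 3 club cell markers (−1.78). The 5 epithelial markers had a median of −0.72, all with a negative difference. Against matched primary tumors 1 club cell marker passed, and 0 alveolar type 2 or epithelial markers did. Epithelial sums overlapped, with 3679 to 11953 in metastases and 4982 to 13800 in primary tumors. Krt8 was higher than in the own primary tumor in 4 of 9 metastases and Krt18 in 3 of 9. Of 6 fibroblast markers 5 were higher, with a median of 0.93, and their summed intensity was 2220 to 17001 in metastases and 1286 to 5722 in primary tumors. Fibroblast sums were 2220 to 8488 in the metastases of mouse 1, 3976 in that of mouse 2, 11627 to 17001 in those of mouse 3, and 5489 and 3679 in those of mouse 4. Their part in the member values was not tested.

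The wider pathway list held other condensin and cohesin subunits, cohesin regulators, the SMC5/6 complex, other topoisomerases and further chromosome proteins. Of its 36 genes 27 were measured, 17 higher and 10 lower in metastases, and 0 passed in either comparison. Their median difference was 0.05, beside −0.02 for all probe sets. The 3 highest were Ncapg2, a condensin II subunit (0.77, SE 0.57, adjusted p = 0.674), Nsmce1, a ubiquitin ligase subunit of the SMC5/6 complex (0.28, SE 0.11, adjusted p = 0.358, higher in 9 of 9 metastases), and Sgo1, which protects cohesin at centromeres (0.24, SE 0.14, adjusted p = 0.576). The 3 lowest were Nsmce3, also of the SMC5/6 complex (−0.23, SE 0.31, adjusted p = 0.839), Mau2, a cohesin loader subunit (−0.20, SE 0.15, adjusted p = 0.662), and Esco1, an acetyltransferase of Smc3 (−0.17, SE 0.09, adjusted p = 0.543, lower in 9 of 9 metastases). Among the 4 other topoisomerases, Top1 differed by 0.15 (SE 0.12, adjusted p = 0.706).

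The members also differed in how closely they followed Top2a over the 16 tumors, which include several tumors of 1 mouse and are given as a description. Pearson's r with Top2a was 0.978 for Ncapg, 0.920 for Smc2 and 0.901 for Ncapd2. It was 0.768 for Smc4, 0.744 for Smc3, 0.573 for Smc1a, 0.502 for Ncaph and 0.488 for Rad21, and −0.257 for Top2b. Each gene was taken at its brightest probe set. At 1436707_x_at, whose probes can match other transcripts, Ncaph had r = 0.760 with Rad21 and 0.325 with Smc2. The Ncaph correlations hold for that probe set only, and those of 1423920_at were not computed. The 2 probe sets differed, for example with 367 and 203 in the primary tumor of mouse 6. Among 8424 genes, with the members left out, those most like Top2a were Hells (0.972), Ube2c (0.967), Polr2d (0.964), Ect2 (0.963) and Uhrf1 (0.946). Those most like Smc2 were Rbmxl1 (0.929), Anp32e (0.915), Prdx2 (0.910), Nusap1 (0.910) and Larp7 (0.909). Those most like Rad21 were Snhg1 (0.893), Mrpl11 (0.869), Zfp871 (0.845), Ints5 (0.843) and Polr2g (0.800). Members were left out of all 3 lists, and Smc2 had r = 0.940 with Ncapg and 0.920 with Top2a.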

How the data were processed

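Total RNA of 16 dissected tumors was hybridised to Affymetrix Mouse 430A 2.0 arrays. The authors scanned the arrays with Microarray Suite and computed the deposited intensity values in dChip with the model that subtracts mismatch from perfect match probes, after invariant set normalization, and versions are not given in the sources used here. Intensities are linear, 3.71% of them at most 1. Array medians were 75.0 to 85.5, and arrays correlated at 0.900 to 0.969 over 120 pairs, none identical. Their number limits the precision.

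Values under 1 were raised to 1 before the log2. The 64 control probe sets were left out. Metastases and matched primary tumors were compared with limma 3.58.1 under R 4.3.3, the mouse being a fixed block, and all 16 tumors with the mouse as a random block (consensus correlation 0.238), both with Benjamini-Hochberg adjustment over 22626 probe sets. The labels give the mouse of every tumor. To check this pairing, the mean of the metastases or of the matched primary tumors was subtracted for each probe set. The remaining deviations correlated between a metastasis and its own primary tumor at −0.00 to 0.40. The own primary tumor gave the highest of the 4 correlations for 6 of 9 metastases. In 18 probe sets no sample stood apart by Dixon's test. On simulated data of 22626 probe sets, the paired fit was tested for recovery of known changes.

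Gene symbols came from the platform annotation (20380 probe sets with 1 symbol, 691 with several, 1555 with none), and promoter sequences from RefSeq (GRCm38.p6). Named genes were all members, the 3 highest and 3 lowest of the pathway list and the 5 genes most correlated with Top2a, Smc2 and Rad21 among non-members above the 40th percentile. The members and lists were chosen with earlier results of these data known. Alternatives changed the floor, offset, dim filter, normalization, block, replicate unit, variance model, test and samples.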

Additional observations from a re-analysis of the deposited data

Results flagged for a closer look

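In 4 of 18 member probe sets, the liver metastases and the mediastinal lymph node metastases moved in opposite directions relative to their own primary tumors, in every tumor of each site. For Smc4 1427275_at the mean log2 ratio was 1.52 in the 2 liver metastases and −0.83 in the 2 lymph node metastases, a gap of 2.35. For Smc4 1427276_at the gap was 0.86 (0.79 and −0.07), for Rad21 1416162_at 0.59 (0.21 and −0.38) and for Ncaph 1423920_at 0.48 (0.37 and −0.11). The differences were not tested. The same held for 2872 of all 17220 probe sets above the 25th percentile (16.7%), so the members' 4 of 18 (22.2%) lie near that background. The liver metastases came from mice 1 and 2 and the lymph node metastases from mice 3 and 4. For Smc4 1427275_at the other sites of the same mice gave like values, with 1.49 (inguinal) and 1.34 (body wall) in mouse 1, −0.55 (heart) and −0.79 (subcutaneous) in mouse 3 and −0.78 (pleura) in mouse 4. In 36 groups of tumors examined, 0 held a value far from the rest by Dixon's test.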

How the results depend on the processing

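The number of members that passed against matched primary tumors was 0. It became 1 with dim probe sets left out (Top2a, adjusted p = 0.0422), 1 with a variance trend and robust prior (Top2a, 0.0464), 1 with the methods' t-test over the 9 ratios (Ncaph, 0.0132) and 4 with all 16 tumors, and it stayed at 0 without the replicate block, with 1 mean ratio per mouse and with each mouse or metastasis left out. Over these alternatives the adjusted p of Top2a ran from 0.0261 to 0.424. Against all primary tumors the count ranged from 0 to 4 when 1 primary tumor or 1 mouse was left out (the mice were added after seeing the data), and it was 3 without the replicate block, 3 with the floor at the 25th percentile and 4 after quantile normalization. The causes were not tested. The methods' t-test, which takes metastases of 1 mouse as independent, called 7 of 22 member probe sets (2 of them cohesin, Smc3 1450951_at and Rad21 1455938_x_at) and 2208 of 22626 in all at the methods' unadjusted threshold, and 1 and 885 after Benjamini-Hochberg adjustment. The gap between condensin and cohesin kept its sign in every alternative run, from 0.55 with 16 added before the log2 to 0.90 without mouse 4, and was 0.66 without the replicate block. The variance model could not change it, since it was not fitted.

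Values near 0 that turned sign, none of them past the threshold, were those of Top2b 1416731_at (−0.021 with all 16 tumors), Top2b 1416732_at (0.014 centred on the median, 0.016 after quantile normalization, 0.059 with 1 mean per mouse, 0.034 without lymph nodes, 0.075 with all 16), Smc4 1427275_at (−0.065 without liver), Smc1a 1417830_at (0.027 with all 16) and Smc1a 1417831_at (−0.0021 without lymph nodes, −0.055 without liver). Leaving out 1 mouse or tumor gave −0.22 to 0.23 for Top2b 1416732_at, −0.23 to 0.65 for Smc4 1427275_at, −0.044 to 0.11 for Smc1a 1417831_at and −0.064 to 0.19 for Rad21 1416162_at. Against all primary tumors it gave −0.16 to 0.16 for Top2b 1416731_at, −0.062 to 0.24 for Top2b 1416732_at, −0.013 to 0.72 for Smc4 1427275_at, −0.0069 to 0.12 for Smc1a 1417830_at and −0.062 to 0.17 for Rad21 1416161_at.

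The limits are 4 mice with metastases, 1 array per tumor, no estimate of tumor cell content, and Ncapg intensities around the 25th percentile of the arrays.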
